A study of Homo sapiens with 12 samples.

Results

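The genes of glycolysis and of the transcriptional response to low oxygen were followed after silencing of CYTOR, a long noncoding RNA, in MDA-MB-231 cells, an established line from a human breast cancer of the triple-negative type (without oestrogen and progesterone receptors and HER2 amplification). The group holds 40 named genes, chosen by function but with earlier results of these data known. They are 17 enzymes of glycolysis, 4 enzymes that set its flux, 3 sugar or lactate transporters and 2 carbonic anhydrases. The others are 4 genes of oxygen sensing and 10 further genes that hypoxia induces. Of the 40, 38 had at least 1 named probe (67 probes in all), and 37 had a probe bright enough to be tested. In the whole series 12714 genes were tested. CA9 and SLC16A3 had no named probe and were not analysed here. PDK1 had a single probe below the brightness limit, with values of 6.41 to 6.63 after the CYTOR LNA and 6.47 to 6.57 after the control LNA.

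Total RNA was measured on 12 single-colour Illumina bead arrays. Cells of 6 samples received a locked nucleic acid (LNA) gapmer, an antisense oligonucleotide that directs RNase H to the RNA it binds, against CYTOR, and cells of the other 6 received a control LNA. In both groups 300000 cells in 2 ml were transfected with 30 nM LNA and a lipid reagent and were collected after 24 h. All samples came from the same cell line, and the labels name no other cell line or hypoxic treatment and do not say whether replicates were separate cultures, so the p-values given here reflect sample-to-sample spread that could be technical only. The labels also place each array in a batch: batch 1 held 1 CYTOR LNA array (replicate 2) and 3 control arrays (replicates 4, 5 and 6), and batch 2 held 5 and 3.

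Glycolysis breaks glucose down to pyruvate, and lactate dehydrogenase then turns pyruvate into lactate when it is not passed on to the mitochondria. Under low oxygen the alpha subunits of hypoxia-inducible factor (HIF), HIF1A and EPAS1, are no longer hydroxylated by the EGLN prolyl hydroxylases and escape degradation, so that HIF raises many glycolytic genes along with genes of blood vessel growth, acid export, mitophagy and collagen maturation. Many tumour cells, MDA-MB-231 among them, express glycolytic genes strongly even in ample oxygen. HIF itself is controlled mainly through protein stability, which an array does not measure.

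The silencing was visible in every sample: the brightest CYTOR probe read 6.64 to 6.86 on the log2 scale in the 6 CYTOR LNA arrays and at least 7.72 in each of the 6 control arrays. The 6 genes listed as high in MDA-MB-231, VIM and AXL among them, had mean levels of 8.04 to 13.3. Of the 6 genes listed as low, ESR1 lay at 6.47, below the brightness limit of 6.52, and the other 5 lay above it, with EPCAM (7.91) and ERBB2 (7.79) highest. Among markers of other cell types, 2 of 5 fibroblast genes and 3 of 5 leukocyte genes exceeded it, with highest levels of 6.81 (PDGFRB) and 7.87 (CD14), while PTPRC, CD3E, DCN and COL3A1 did not; the part of other cells in the results was not tested. The array of CYTOR LNA replicate 2, the only silenced array in batch 1, stood apart from its group. It differed from the mean of the other 5 by more than 0.2 for 15.5% of all genes tested, whereas the same count for the other 11 arrays ran from 1.11% to 5.83%. Because of the uneven batches this array alone carried 28.6% of every batch-adjusted difference below (the weight of batch 1), and values are given with and without it where it moved them most.

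Most genes of glycolysis and the hypoxia response were at similar levels after both LNAs, and the hexokinase gene HK2 was the main exception. With each gene represented by its brightest tested probe, 2 of 37 members fell, HK2 and BNIP3, none rose and 35 did not pass (limma with group and batch as terms, Benjamini-Hochberg adjusted p below 0.05 over all 23662 tested probes). The share that fell, 5.41%, was the same as the background over all genes tested, of which 5.40% fell, and 2.49% of all genes rose. At an unadjusted p under 0.05, 5 members were lower and 3 higher, that is 21.6% of members, again the same as the 21.6% of all genes. The median log2 difference of the members was -0.01, beside 0.00 over all genes tested. Taken without sign, the median difference was 0.066 for members and 0.048 for all genes tested. The sizes are bounded by the intervals of the fit. The 95% interval lay within a 1.2-fold change in either direction for 31 of 37 members (83.8%), beside 88.5% of all genes tested. It lay within 1.5-fold for all 37 members and for 12608 of 12714 genes tested. These folds are on the scale of the deposited log2 values and may be understated for dim probes. In bulk RNA, fewer cells expressing a gene and less of its RNA per cell cannot be told apart.

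**Figure D1:**
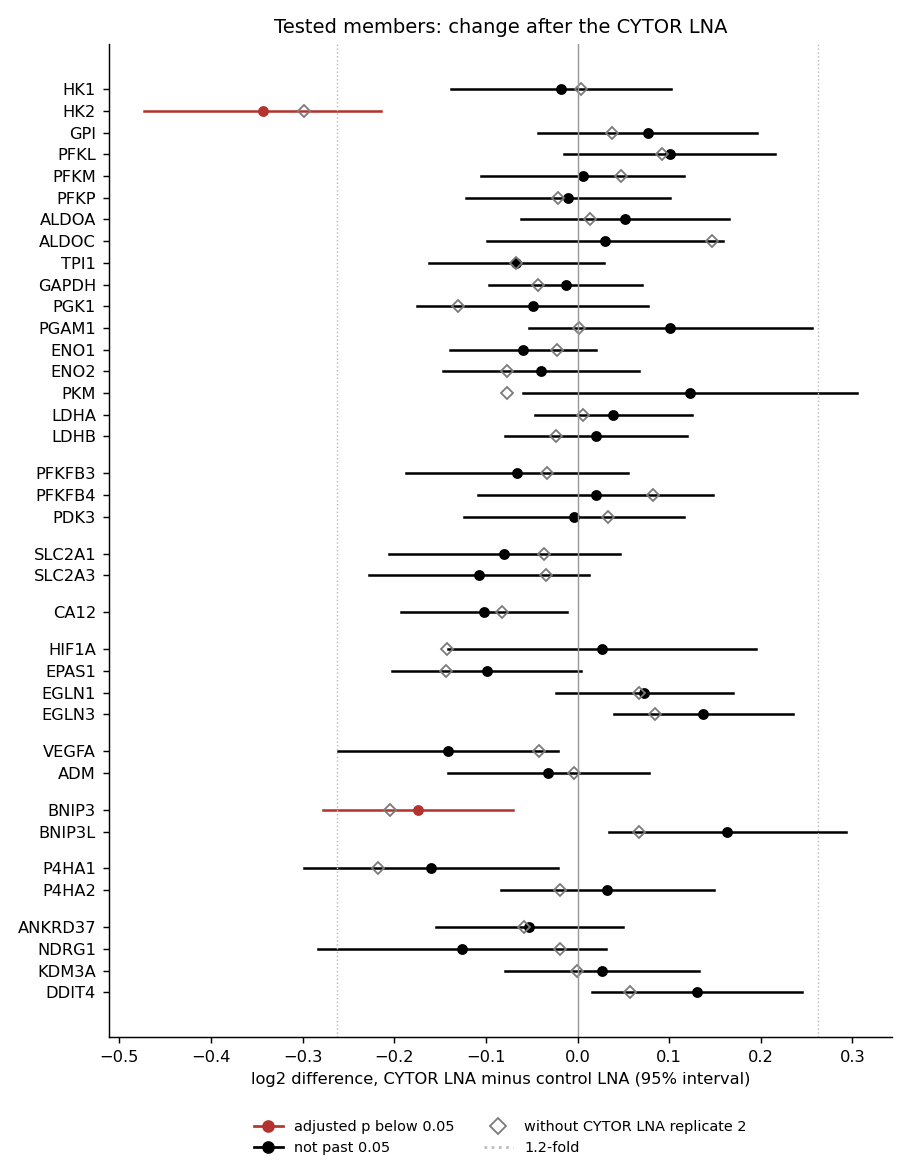
Change of the 37 tested members after the CYTOR LNA. Filled circles are batch-adjusted log2 differences (CYTOR LNA minus control LNA, 6 arrays each) with 95% intervals, red where the adjusted p is below 0.05; open diamonds leave out CYTOR LNA replicate 2 and dotted lines mark 1.2-fold. HK2 and BNIP3 are the red points, and for 7 members (HK1, PKM, LDHB, PDK3, HIF1A, P4HA2 and KDM3A) the diamond lies on the other side of 0 from the circle, farthest for PKM and HIF1A.

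HK2 encodes the inducible hexokinase, which commits glucose to the cell by phosphorylating it. Its brightest probe read 7.94 to 8.16 with a median of 8.06 after the CYTOR LNA and 8.16 to 8.49 with a median of 8.43 after the control LNA. The groups did not overlap, although the highest silenced array (replicate 5, 8.160) and the lowest control (replicate 2, 8.164) nearly met. The means were 8.05 ± 0.09 (SD, n = 6) and 8.38 ± 0.13 (SD, n = 6), a 1.27-fold fall (log2 difference -0.34, SE 0.063, 95% interval -0.47 to -0.21, limma adjusted p = 0.00072). With 924 ways to split the arrays, the two-sided exact permutation p was 0.0022, as small as this design can give. A second HK2 probe gave the same picture: it read 7.89 to 8.08 in silenced arrays and 8.09 to 8.28 in controls, with a difference of -0.21 (SE 0.052, limma adjusted p = 0.013). Within batch 2 the brightest probe differed by -0.30 and within batch 1 by -0.46. The call was kept when any single array was left out (adjusted p from 4.7e-05 to 0.0065 by limma).

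HK2 lies on chromosome 2 (chr2:74834127-74893359, GRCh38.p14). The windows around its annotated starts are shown because it is the clearest change among the members, and because HIF binds a short core motif that can be looked up by eye. Capitals mark ACGTG or GCGTG on either strand (read as CACGT or CACGC from the other strand), and overlapping matches of the palindrome CACGTG are merged. Each window runs from 250 bases before to 50 bases after a RefSeq start.
HK2, chr2:74833877-74834176, plus strand: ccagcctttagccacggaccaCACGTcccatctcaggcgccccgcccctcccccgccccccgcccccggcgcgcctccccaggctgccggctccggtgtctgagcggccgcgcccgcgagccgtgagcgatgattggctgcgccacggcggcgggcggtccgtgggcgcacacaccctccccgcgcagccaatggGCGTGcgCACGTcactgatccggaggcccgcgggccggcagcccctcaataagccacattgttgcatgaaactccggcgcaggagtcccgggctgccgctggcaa
HK2, chr2:74834920-74835219, plus strand: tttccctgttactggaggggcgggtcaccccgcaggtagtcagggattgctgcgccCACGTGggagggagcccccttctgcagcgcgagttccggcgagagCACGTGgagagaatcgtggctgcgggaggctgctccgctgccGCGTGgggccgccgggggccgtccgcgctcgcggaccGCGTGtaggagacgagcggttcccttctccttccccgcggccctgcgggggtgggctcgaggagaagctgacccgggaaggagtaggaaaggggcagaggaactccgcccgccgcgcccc
BNIP3, chr10:131981874-131982173, minus strand: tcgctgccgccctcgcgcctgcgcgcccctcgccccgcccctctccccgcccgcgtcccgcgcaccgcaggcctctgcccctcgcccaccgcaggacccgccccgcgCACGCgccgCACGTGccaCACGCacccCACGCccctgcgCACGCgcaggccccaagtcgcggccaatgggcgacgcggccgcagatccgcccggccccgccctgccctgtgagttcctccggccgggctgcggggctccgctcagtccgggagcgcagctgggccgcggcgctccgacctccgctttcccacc
The upstream HK2 window holds 3 matches, the downstream one 6 and the BNIP3 window 6, counted on both strands. Such matches are common: 44 of 64 member windows (68.8%) and 17012 of 35116 windows in the RefSeq table (48.4%) hold at least 1, and the median G and C content was 68.8% in member windows and 58.7% in all. The 64 windows belong to 36 member genes, of which 33 (91.7%) had a match, beside 14318 of 27305 genes (52.4%) in all. This contrast was not tested. A match is a string of letters and says nothing of HIF binding, and most members whose windows hold one did not pass the test.

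The other 16 glycolytic enzyme genes did not pass, and their batch-adjusted differences ran from -0.07 to 0.12, or from -0.13 to 0.15 without CYTOR LNA replicate 2. HK1, the constitutive hexokinase, read 11.3 to 11.5 in both groups with a difference of -0.02 (SE 0.058). Further along the pathway, GPI, which turns glucose 6-phosphate into fructose 6-phosphate, differed by 0.08 (SE 0.058), and by 0.04 without that array. The phosphofructokinase genes of the committed step differed by 0.10 for the liver form PFKL (SE 0.056), 0.01 for the muscle form PFKM (0.05 without that array) and -0.01 for the platelet form PFKP. Aldolases, which split the sugar, gave 0.05 for ALDOA and 0.03 for ALDOC over all arrays. Without CYTOR LNA replicate 2 they gave 0.01 for ALDOA and 0.15 for ALDOC, the latter with an unadjusted p of 0.015 and an adjusted p of 0.14 by limma. TPI1, which interconverts the resulting trioses, gave -0.07 (SE 0.046) and the same without that array.

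In the later steps of the pathway, which yield ATP, no gene passed. GAPDH, often used as a reference gene, read 13.0 to 13.1 after the CYTOR LNA and 13.0 to 13.2 after the control LNA, with a difference of -0.01 (95% interval -0.10 to 0.07). PGK1, the kinase that makes the first ATP, gave -0.05 (SE 0.061), the mutase gene PGAM1 0.10 (SE 0.075), and the enolases ENO1 and ENO2 -0.06 (SE 0.039) and -0.04 (SE 0.052). The lactate dehydrogenase genes LDHA and LDHB differed by 0.04 (95% interval -0.05 to 0.12) and 0.02 (95% interval -0.08 to 0.12). Without CYTOR LNA replicate 2 the difference of PGAM1 was 0.00 and that of PGK1 -0.13, with an unadjusted p of 0.045 and an adjusted p of 0.27 by limma. GAPDH then gave -0.04, ENO1 -0.02, ENO2 -0.08, LDHA 0.01 and LDHB -0.02. Of the 16 members with several tested probes, 7 had probes of both signs: TPI1, LDHA, GAPDH, ALDOA, PFKFB3, PDK3 and CA12. None of those probes passed. For ALDOA and CA12 the opposite sign came from a dim probe, with means of 6.55 and 6.59 beside the brightness limit of 6.52. TPI1 gave -0.07 and 0.07, LDHA 0.04, -0.05 and 0.06, GAPDH -0.01, -0.04 and 0.02, and ALDOA 0.05, 0.06 and -0.02.

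The enzymes that set glycolytic flux and the exit of pyruvate did not pass either. PFKFB3 and PFKFB4, which make the allosteric activator of phosphofructokinase, differed by -0.07 (SE 0.059) and 0.02 (SE 0.062), and by -0.03 and 0.08 without CYTOR LNA replicate 2. PDK3, one of the kinases that shut pyruvate dehydrogenase, differed by -0.00 (SE 0.058), with 0.08 at its second probe, and its brightest probe gave 0.03 without that array. Among glucose transporter genes, SLC2A1 (GLUT1) differed by -0.08 (SE 0.061; -0.04 without that array) and SLC2A3 (GLUT3) by -0.11 (SE 0.058, adjusted p = 0.33 by limma). For SLC2A3 the lowest silenced array was CYTOR LNA replicate 2 at 9.77, and without it the difference was -0.03. The carbonic anhydrase gene CA12, whose product sits at the cell surface and regulates pH, read 6.99 to 7.23 with a median of 7.11 after the CYTOR LNA and 7.12 to 7.31 with a median of 7.16 in controls. The groups overlapped, and the difference of -0.10 (SE 0.044, unadjusted p = 0.028) did not pass after adjustment (0.19 by limma); its dimmer probe gave 0.02.

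Among the oxygen-sensing genes, HIF1A differed by 0.03 (SE 0.081) and EPAS1 by -0.10 (SE 0.050, adjusted p = 0.29 by limma), or by -0.14 without CYTOR LNA replicate 2 (adjusted p = 0.13). The HIF1A value depends on 1 array and is taken up below. The prolyl hydroxylase genes, which HIF induces and which in turn mark HIF for degradation, did not pass. EGLN3 read 6.98 to 7.20 with a median of 7.07 after the CYTOR LNA and 6.89 to 7.08 with a median of 6.93 after the control LNA. The groups overlapped: control replicate 2 lay above 3 silenced arrays. The difference of 0.14 (SE 0.047) had an unadjusted p of 0.0077 and an adjusted p of 0.090 by limma; it passed without that control array (0.18, adjusted p = 0.030) and shrank to 0.09 without CYTOR LNA replicate 2 (adjusted p = 0.41). EGLN1, the main oxygen sensor of the family, differed by 0.07 (SE 0.047).

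BNIP3, a mitophagy receptor of the outer mitochondrial membrane and a HIF target, was the other member that fell. It lies on chromosome 10 (chr10:131967684-131981923), and its start window is printed above. It read 11.08 to 11.19 with a median of 11.16 after the CYTOR LNA and 11.23 to 11.41 with a median of 11.29 after the control LNA, so the groups did not overlap. This is a 1.13-fold fall (log2 difference -0.17, SE 0.050, 95% interval -0.28 to -0.07, limma adjusted p = 0.038). The exact two-sided permutation p, with batch ignored, was 0.0022 and restates the lack of overlap. The gene has 1 named probe, so no second probe checks it. The call was close to the threshold and was lost without CYTOR LNA replicate 1 (limma adjusted p = 0.062), 3 (0.077), 4 (0.052) or 6 (0.057), and without control replicate 1 (0.15), 2 (0.12) or 6 (0.060). The difference kept its sign throughout, from -0.20 to -0.14 over the 12 fits that leave out 1 array, and was -0.20 without CYTOR LNA replicate 2. HK2 and BNIP3 were the 2 members whose groups did not overlap, beside 6.76% of all genes tested.

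BNIP3L (NIX), the paralogue of BNIP3 and likewise a mitophagy receptor, did not pass. It read 8.34 to 8.61 with a median of 8.44 in silenced arrays and 8.10 to 8.40 with a median of 8.31 in controls. The groups overlapped, and the difference of 0.16 (SE 0.063, unadjusted p = 0.016) did not pass after adjustment (0.14 by limma). A second BNIP3L probe gave 0.08 (SE 0.056). Within batch 1 the single silenced array exceeded the controls by 0.41, and without that array the difference was 0.07.

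The secreted and matrix-related members showed no call. VEGFA, the growth factor of blood vessels, read 7.14 to 7.57 with a median of 7.46 after the CYTOR LNA and 7.41 to 7.62 with a median of 7.54 after the control LNA. Its difference of -0.14 (SE 0.058, unadjusted p = 0.023, adjusted p = 0.17 by limma) was -0.04 without CYTOR LNA replicate 2, which held the value of 7.14. A second tested VEGFA probe gave -0.03 (SE 0.041) over all arrays. ADM, the vasodilator adrenomedullin, differed by -0.03 (SE 0.053), and by -0.00 without that array. P4HA1, a collagen prolyl 4-hydroxylase subunit, read 9.53 to 9.81 with a median of 9.64 in silenced arrays and 9.65 to 9.97 with a median of 9.88 in controls. Its groups overlapped, and the difference of -0.16 (SE 0.067, unadjusted p = 0.025, adjusted p = 0.18 by limma) was larger without CYTOR LNA replicate 2 (-0.22, adjusted p = 0.076). Batch 2 alone gives the same difference of -0.22, and there it passed (adjusted p = 0.039 by limma). The alternative subunit P4HA2 differed by 0.03 (SE 0.056), and by -0.02 without that array.

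Of the remaining induced genes, DDIT4 (REDD1), a stress-induced inhibitor of mTORC1, read 10.85 to 11.11 with a median of 10.97 after the CYTOR LNA and 10.78 to 10.94 with a median of 10.85 after the control LNA. The groups overlapped, the difference was 0.13 (SE 0.056, unadjusted p = 0.028, adjusted p = 0.19 by limma), and it was 0.06 without CYTOR LNA replicate 2. NDRG1, one of the most responsive hypoxia genes in epithelial cells, gave -0.13 (SE 0.076) over all arrays and -0.02 without that array. ANKRD37, a small HIF target, differed by -0.05 (SE 0.050) and KDM3A, a HIF-induced histone demethylase, by 0.03 (SE 0.051), or -0.00 without that array.

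**Figure D2:**
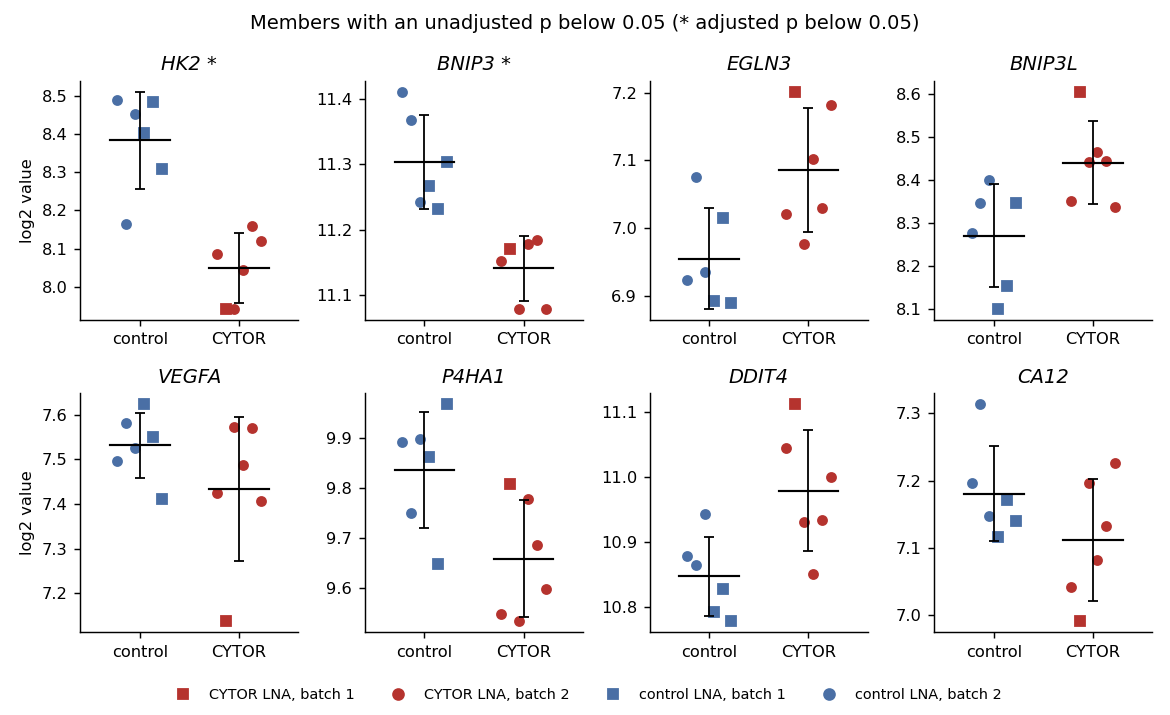
Log2 values on every array of the 8 members with an unadjusted p below 0.05, by group; horizontal lines and bars are means and SD (n = 6). Squares are batch 1 and circles batch 2, and each panel has its own axis. The groups separate for HK2 and BNIP3, while the batch 1 silenced array is the highest or lowest of its group for EGLN3, BNIP3L, VEGFA, P4HA1, DDIT4 and CA12.

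The members also differed between arrays of the same group. On CYTOR LNA replicate 2, 26 of 37 members lay outside the range of the other 5 silenced arrays, 15 above and 11 below, and 9 differed from their mean by more than 0.2. On the other arrays, 25% to 39% of all genes tested and 13.5% to 48.6% of members lay outside the range of the other 5 of their group. On CYTOR LNA replicate 2 the shares were 48.3% and 70.3%. The genes above the range included the pyruvate kinase gene PKM, PGAM1, PGK1, GPI, ALDOA, GAPDH and LDHB in the pathway itself, together with HIF1A, EPAS1, EGLN3, BNIP3L, P4HA1 and DDIT4. Those below it included VEGFA (by 0.35 from the mean of the other 5), ALDOC (0.32), NDRG1 (0.26), PFKFB4 (0.26), SLC2A1 (0.21), SLC2A3 (0.17) and CA12 (0.15). Genes known to be induced by HIF thus lay on both sides of the range on this array. It was also the only silenced array of its batch, so this sample and its batch cannot be told apart.

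**Figure D3:**
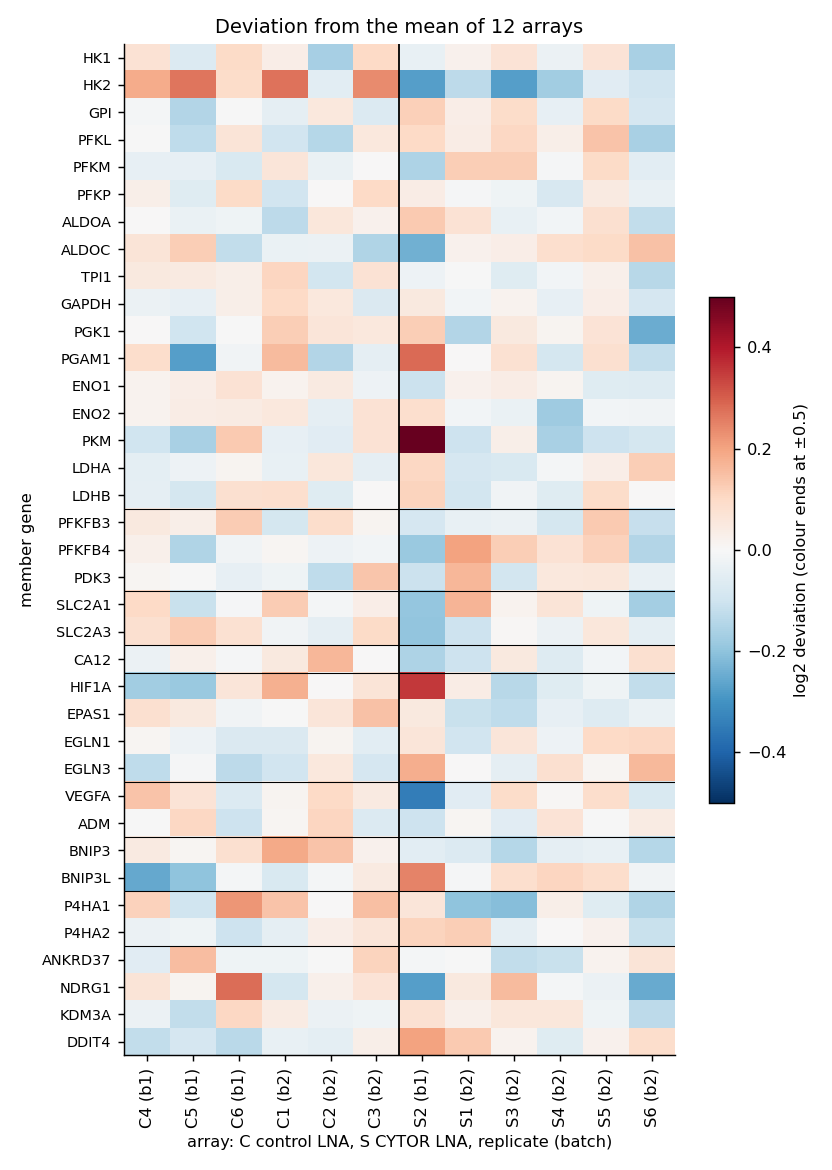
Deviation of the 37 tested members from each gene's mean over the 12 arrays, in log2 units, with control LNA arrays (C) left and CYTOR LNA arrays (S) right of the line, replicate numbers and batch (b1, b2). HK2 and BNIP3 change at the line between the groups, whereas the column of S2 stands out within the CYTOR LNA group for PKM, HIF1A, PGAM1, VEGFA, ALDOC and NDRG1.

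PKM, which encodes pyruvate kinase, had 3 tested probes, and all 3 were highest on that array. The brightest read 10.56 on CYTOR LNA replicate 2, 9.83 to 10.02 on the other 5 silenced arrays and 9.83 to 10.12 on controls. The second read 9.57 on that array against 8.47 to 8.65 on the other silenced arrays, and the third 8.98 against 7.94 to 8.06. The batch-adjusted differences of the 3 probes were 0.12, 0.30 and 0.32 with all arrays (adjusted p = 0.50, 0.18 and 0.16 by limma) and -0.08, -0.05 and -0.03 without that array. On that array the 3 probes exceeded the mean of the other 5 silenced arrays by 0.66, 1.04 and 0.99 on the log2 scale.

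HIF1A did likewise on a smaller scale. Its 3 probes read 10.35, 8.97 and 8.23 on CYTOR LNA replicate 2, above highest values of 10.03, 8.83 and 8.12 on the other silenced arrays. The differences of 0.03, 0.12 and 0.08 became -0.14, -0.05 and -0.03 without it, so the sign of the HIF1A value rests on that array. None of these values passed (adjusted p = 0.25, 0.82 and 0.87 by limma without the array).

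**Figure D4:**
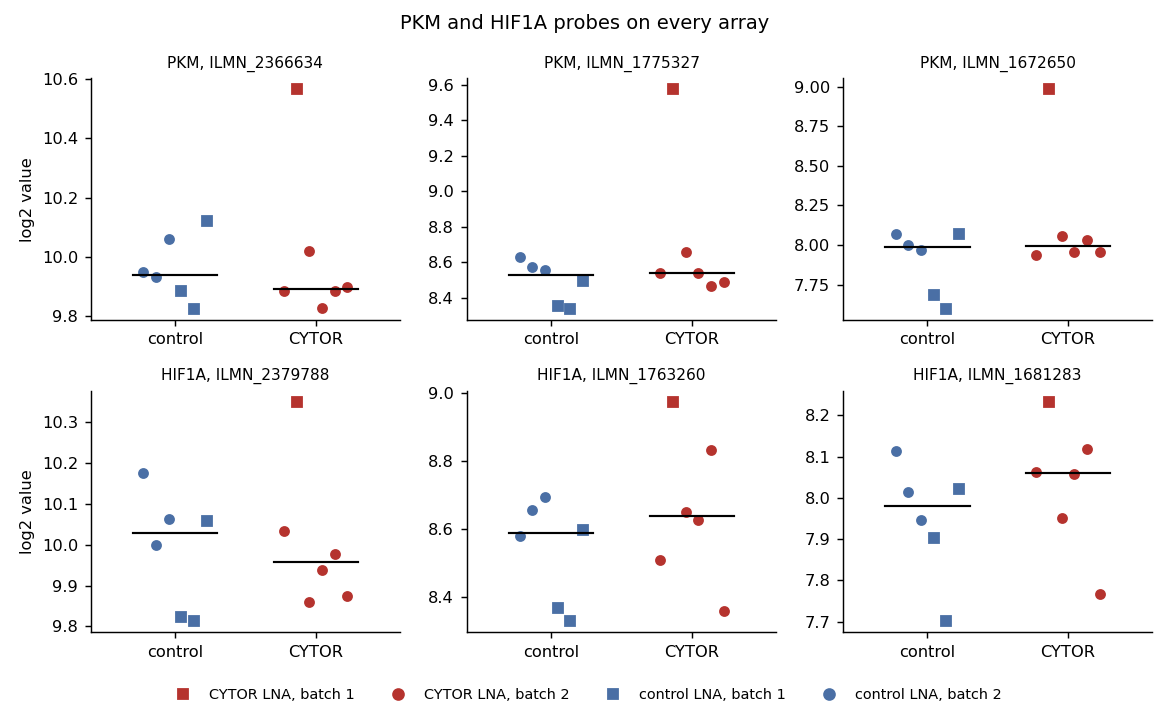
Log2 values of the 3 PKM probes (top) and the 3 HIF1A probes (bottom) on every array, with horizontal lines at group medians; squares are batch 1 and circles batch 2. The single red square, CYTOR LNA replicate 2, lies above every other array in all 6 panels, and for PKM the other silenced arrays sit close to the controls.

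Related genes were also set against each other within each array. The 11 pairs were chosen after the values of the single genes had been seen, so the changes in their log2 difference are a description with no test, and those of HK2 and BNIP3 restate in part the falls given above. Only the change in a gap between the LNAs can be read, since levels of different probes are not on a common scale. The gap of BNIP3 minus BNIP3L was smaller on each silenced array than on any control array, with a batch-adjusted change of -0.34 (SE 0.067), and of -0.27 without CYTOR LNA replicate 2. For HK2 minus HK1 the change was -0.33 (SE 0.081) and -0.30 without that array, and the groups overlapped. For P4HA1 minus P4HA2 it was -0.19 (SE 0.087), and for PFKP minus PFKL -0.11 (SE 0.047). LDHA minus LDHB changed by 0.02 (SE 0.051), and ENO2 minus ENO1 by 0.02 (SE 0.063) or -0.05 without replicate 2. EPAS1 minus HIF1A changed by -0.13 (SE 0.10), a value that was -0.00 without replicate 2, and ALDOC minus ALDOA by -0.02 (SE 0.11), or 0.13 without it.

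**Figure D5:**
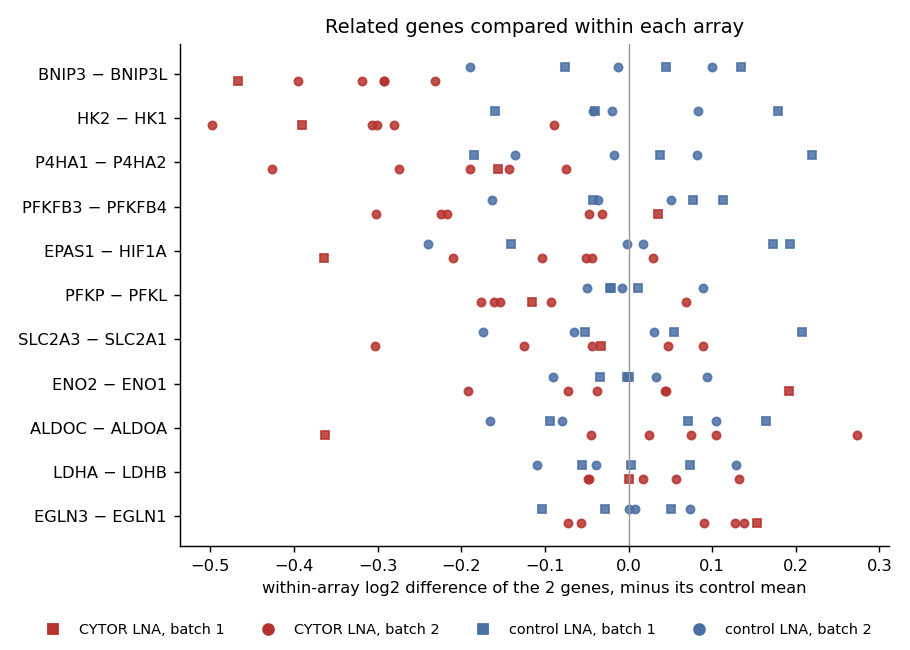
Within-array log2 difference of 11 pairs of related genes, each minus its mean over the control arrays; red points are CYTOR LNA arrays and blue points control arrays, squares batch 1 and circles batch 2. The red points of BNIP3 minus BNIP3L lie wholly left of the blue ones, and those of HK2 minus HK1 mostly so.

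A wider list of 109 genes around the same pathways was counted by the same rule. Of 87 tested, 6 fell (6.90%, beside 5.40% of all genes) and 2 rose (2.30%, beside 2.49%). Without control replicate 1 the counts were 3 and 1. No gene passed among 13 HIF partners and oxygen sensors (VHL 0.11, ARNT 0.01, HIF1AN 0.06), 10 further glycolytic isozymes, 7 carriers, 7 pentose phosphate genes or 5 gluconeogenic genes. Closest were RPE of the pentose phosphate genes (-0.18, limma adjusted p = 0.0505) and BPGM of the isozymes (0.11, adjusted p = 0.084). For both, the groups did not overlap. Of the 2 rises, 1 was among 11 genes of pyruvate entry into mitochondria. The 6 falls and the other rise were among 34 other genes that hypoxia can induce. Of these 34, 17.6% fell, beside 5.40% of all genes, and 2.94% rose, beside 2.49%. Whether that share of falls exceeds the background was not tested, and the list was chosen with earlier results of these data known. Many of these genes also answer to other signals, so they do not report on oxygen alone.

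GBE1, the glycogen branching enzyme, had the largest of these falls. It read 9.31 to 9.51 with a median of 9.38 after the CYTOR LNA and 9.65 to 9.77 after the control LNA, a 1.26-fold fall with no overlap (-0.33, SE 0.056, limma adjusted p = 0.00024). ANGPTL4, a secreted inhibitor of lipoprotein lipase, read 6.68 to 6.76 against 6.91 to 6.99 (-0.23, SE 0.033, adjusted p = 3.2e-05), close to the brightness limit, and its second tested probe gave -0.05. HMOX1, haem oxygenase (-0.23, adjusted p = 0.040), RBPJ, the DNA-binding factor of Notch signalling (-0.19, adjusted p = 0.043), IGFBP3, an insulin-like growth factor binding protein (-0.16, adjusted p = 0.024), and TMEM45A (-0.16, adjusted p = 0.016) also fell. Second probes gave -0.06 for RBPJ, -0.08 for IGFBP3 and -0.03 for TMEM45A, and the groups overlapped for HMOX1, RBPJ and IGFBP3.

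The 2 rises were small. PPP1R3C, which targets a phosphatase to glycogen, read 7.62 to 7.80 against 7.43 to 7.57 in controls (0.18, SE 0.047, limma adjusted p = 0.017). PDK2, a pyruvate dehydrogenase kinase like PDK3, read 6.71 to 6.85 against 6.57 to 6.67 (0.13, SE 0.034, adjusted p = 0.017), near the brightness limit. Neither group pair overlapped.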

How the data were processed

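The deposited table holds log2 expression values, 1 column per array, which per the submitters' processing notes were made with lumi; its version, its transformation and normalization and any batch adjustment were not given in the sources used here. A batch term had p below 0.05 for 1.79% of tested probes, where chance gives 5%. Of 48107 probe rows, 784 without values were left out. Probes were named from the platform annotation (30113 with 1 gene symbol, 8 with several, 17202 with none); matching gene identifiers to RefSeq (GRCh38.p14) changed 0 symbols. Probes with a mean of at least the median, 6.52, were tested (23662), and the brightest tested probe represented a gene. No detection p-values were used. The number of arrays limits the precision.

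limma 3.58.1 in R 4.3.3 (lmFit, eBayes with an intensity trend) was fitted with group and batch on all 12 arrays (9 residual degrees of freedom), with p-values adjusted by Benjamini-Hochberg over the tested probes and a threshold of 0.05. The fit was tested on simulated data. Single values were also tested by exact permutation of the 12 arrays, without regard to batch. Members, lists and naming rule (members with p below 0.05, up to 10, per-array values; wider list, called genes) were chosen with earlier results of these data known. Alternatives varied batch, pairing, chip position, brightness filter, normalization, variance model, probe choice, threshold and arrays. Promoter windows are from RefSeq (GRCh38.p14).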

Additional observations from a re-analysis of the deposited data

Results flagged for a closer look

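In each group of 6 arrays the gap of the highest or lowest array to its neighbour was compared with the group's range (Dixon's criterion), over 140 groups; chance gives about 1 in 20, that is about 7, and 8 were found. Of these, 5 concern CYTOR LNA replicate 2: the 3 PKM probes at 8.98, 9.57 and 10.56, the brightest HIF1A probe at 10.35 and ALDOC, which was lowest at 7.36. The others were PFKFB3 (9.38) and IGFBP3 (7.21), highest in CYTOR LNA replicate 5, and PFKFB4 (8.19), lowest in control replicate 5.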

How the results depend on the processing

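Leaving aside batch 1 alone, with 1 CYTOR LNA array, and the looser threshold, which cannot lose a call, HK2 kept its direction and its call in 23 of 23 alternatives (-0.42 to -0.28). BNIP3 kept its direction in those 23 but lost its call in 9, with adjusted p from 0.014 to 0.15. Batch 2 alone and the fit without CYTOR LNA replicate 2 give the same difference for each gene and are not separate checks of it. The count of members that fell, 2, became 1 with a replicate block beside batch and without the brightness filter. It became 3 within batch 2 alone, where P4HA1 passed too. Over the fits without 1 array it ran from 1 to 2. Members that rose, 0, became 5 within batch 1 and 1 at an adjusted p below 0.10, and 0 to 1 without 1 array. Wider-list falls (6) ran from 3 to 7 without 1 array. Wider-list rises (2) became 4 within batch 2 and 4 when probes of a gene were averaged, and ran from 1 to 3 without 1 array. Counts of falls and rises within batch 1 alone are not given, since they rest on its single CYTOR LNA array. PKM turned to -0.077 within batch 2 and without CYTOR LNA replicate 2, and ran from -0.077 to 0.19 without 1 array. HIF1A turned to -0.14 in both settings and to -0.072 with array weights, and ran from -0.14 to 0.093. Without that array, as chosen after seeing the data, the other PKM probes gave -0.050 and -0.027 and the other HIF1A probes -0.047 and -0.033. Over all genes tested, the 316 rises became 494 without a batch term, 530 at an adjusted p below 0.10 and 199 without control replicate 2. Same-numbered samples did not pair: their deviations correlated from -0.17 to 0.18, above 0.1 in 1 of 6 pairs, and 1 of 12 samples correlated best with its own number. With the replicate block 1 member fell, HK2, and BNIP3 had an adjusted p of 0.075. The cause of these shifts was not tested.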
